A study of Mus musculus with 3 samples.

Results

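The genes described here are the glutamate receptors of the mouse hippocampus with their auxiliary subunits and the vesicular glutamate transporters. They were chosen by name, as 35 gene symbols, and all 35 were found among the 54532 genes of the deposited table. The set holds 4 AMPA subunits, 5 kainate subunits, 7 NMDA subunits, 1 delta subunit, 6 metabotropic receptors, 8 auxiliary subunits of AMPA receptors, 2 auxiliary subunits of kainate receptors and 2 vesicular glutamate transporters. RNA came from the hippocampus of 10-month-old mice on the C57BL/6 background, with 1 library for each of 3 genotypes. These were wild type (WT), PS19, and PS19 with a single working allele of Zbp1 (labelled PS19, Zbp1+-, and written PS19 Zbp1+/- here). PS19 mice express mutant human tau from a transgene driven by the mouse Prnp promoter, which is active in neurons and in other cells. A WT library with the Zbp1 allele was not analysed here, and the sex and any pooling of animals were not given in the sources used here. With 1 library per genotype no difference has a replicate check, no p-value is given, and every interval covers counting error only.

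Glutamate carries most excitatory signalling in the hippocampus. AMPA receptors pass the fast current, NMDA receptors admit calcium when the membrane is already depolarised, kainate receptors tune release and excitability, and metabotropic receptors act through G proteins. Delta receptors bind cerebellins and organise synapses. Auxiliary subunits escort the channels to the membrane and set how long they stay open: TARPs (the Cacng genes) and cornichons (the Cnih genes) do so for AMPA receptors, and Neto proteins for kainate receptors. Vesicular transporters load glutamate into synaptic vesicles.

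Recovered reads came to 16746085 for WT, 16400328 for PS19 and 17109734 for PS19 Zbp1+/-. The library sizes by which the deposited FPKM were scaled run in another order, 17253479, 17287957 and 15826984, and are the base of the read ratios. Per recovered read, each ratio of PS19 Zbp1+/- to another library is lower. Several measures set the libraries apart beyond these genes. Zbp1, the targeted gene, was counted 5 times in WT, 91 times in PS19 and 0 times in PS19 Zbp1+/-, although 1 allele should remain; a count of 0 allows up to 3 reads. The name PS19 Zbp1+/- stands for the library so labelled throughout. It also had 0 reads of the X inactivation transcript Xist, against 11062 in WT and 13350 in PS19, and 711 reads of Y-linked Ddx3y, against 0 in both others. Sex and Zbp1 dosage therefore cannot be told apart in either comparison of PS19 Zbp1+/-. Genes seen by a single read numbered 882 in PS19 Zbp1+/-, 2467 in WT and 2465 in PS19. Levels are in FPKM, read counts divided by gene length and by library size. Differences are of log2(FPKM + 1), a scale that understates changes of weakly expressed genes. Protein-coding genes that reached 1 FPKM in at least 1 of the libraries compared entered each comparison.

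Of the 35 genes, 33 had an FPKM of at least 1 in all 3 libraries and 16 had at least 10. The highest level was that of Cnih2 in every library, and the lowest that of Grin3b. Grin3b, an NMDA subunit known from motor neurons, was counted 14 times in WT, with 13 in PS19 and 7 in PS19 Zbp1+/-, and it entered none of the comparisons. Tmem259 overlaps it on the other strand with at least 2206 reads per library. Grm8 passed the minimum only in PS19 Zbp1+/-, so it entered only the comparisons with that library and was bound to be higher there. In bulk tissue, fewer cells of a type and less RNA per cell cannot be told apart. Levels of different genes are compared per length as the table gives it, 15548 bases for Gria2 against 1237 for Cnih2.

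**Figure D1:**
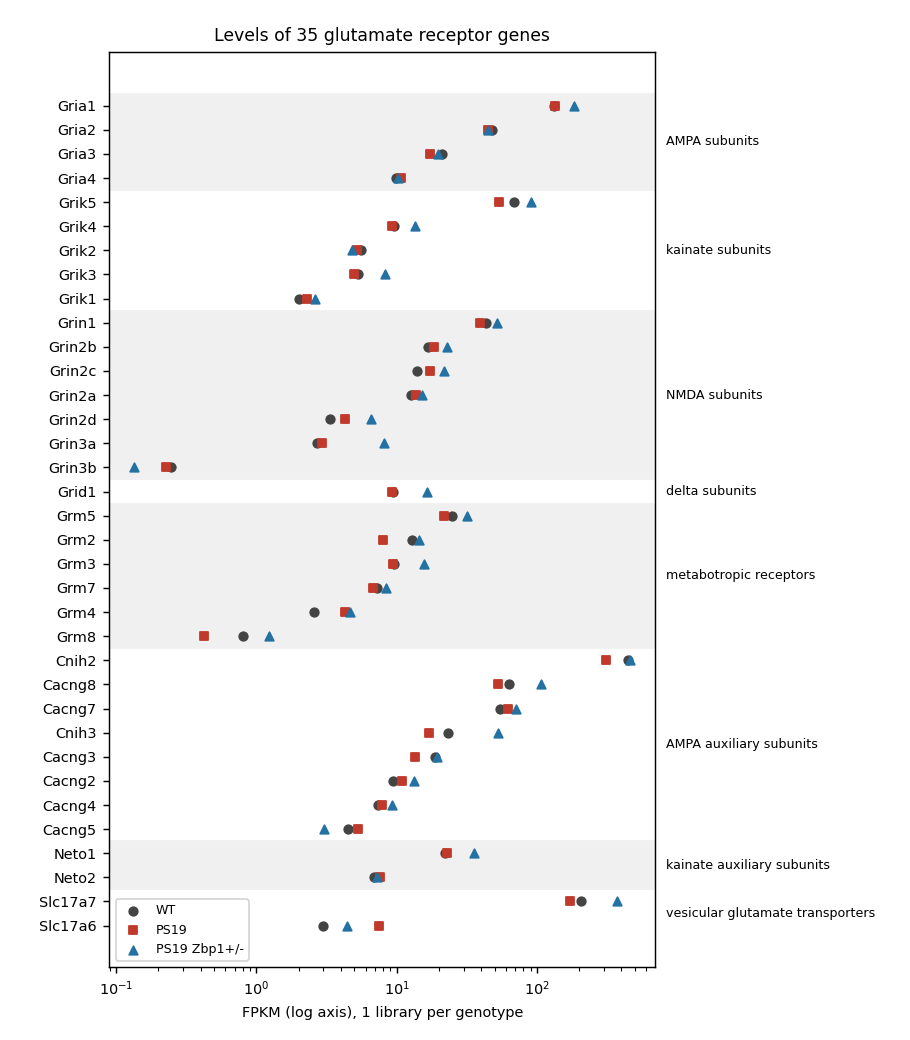
FPKM on a log axis for each of the 35 genes, ordered within each class by the WT level, with 1 point per library (circle WT, square PS19, triangle PS19 Zbp1+/-). The triangles of Cnih3, Grin3a, Slc17a7 and Cacng8 lie to the right of both other points, while the square of Slc17a6 is the rightmost of its row.

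Between PS19 and WT the glutamate receptor genes mostly differed by small amounts. PS19 exceeded WT by 2-fold or more for 1 of the 33 members compared and fell short of it by that much for 0. Over the 12703 genes compared, 2.2% were called higher, 0.291% lower and 2.5% either way. The higher member was Slc17a6, a vesicular glutamate transporter (VGLUT2). The median difference of the members was -0.02 log2 units, against -0.03 over all genes, with 16 members higher and 17 lower, where 46.3% of all genes were higher and 53.7% lower. Rescaling each library to a common sum (TPM) moved both medians, to 0.10 and 0.11, and put 23 of 34 members higher. With that median most of all genes were higher as well. At 1.5-fold the calls were Slc17a6 above and Grm2 below, where 6.34% of all genes were called higher and 2.71% lower. Of 34 members, Grm8 included, the read ratio to WT had an interval above 1 for 10 and below 1 for 12. Per recovered read these were 12 and 12. The intervals cover counting error only, and the same count over all genes was not made, so these counts do not set the members apart from other genes.

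Between PS19 Zbp1+/- and PS19 most members were higher in PS19 Zbp1+/-. Of 34 members, 4 were at least 2-fold higher, Cnih3, Grin3a, Slc17a7 and Cacng8, and 0 were at least 2-fold lower, where 2% and 5.16% of 12772 genes were called, 7.16% in all. At 1.5-fold, 11 members were higher, or 32.4% of those compared, against 9.37% of all genes, and 2 were lower, or 5.88%, against 12.1%. In all, 29 of 34 were higher by any amount and 5 lower, where 53.7% of all genes were higher and 46.3% lower. With 1 FPKM required in both libraries, which leaves out Grm8, 10 were higher at 1.5-fold and 28 of 33 by any amount, against 9.55% and 56.9% of all genes so filtered. The median of the members was 0.43 log2 units, 0.39 above the median of all genes, and 0.40 without Grm8. Scaling moved the whole distribution: the median of all genes was 0.04 as deposited, -0.12 after scaling by total reads and -0.25 after TPM. The number of members higher by any amount was then 25 and 21 of 34, where these negative medians mean that most of all genes were lower. The read ratio to PS19 had an interval above 1 for 26 of 34 members and below 1 for 2, and per recovered read for 20 and 6. Here too the same count over all genes was not made, so these counts do not set the members apart. The distance of the members' median from that of all genes stayed between 0.34 and 0.43 under the filters, pseudocounts and scalings tried.

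Between PS19 Zbp1+/- and WT, 2 of 34 members were at least 2-fold higher, Grin3a and Cnih3, and 0 were at least 2-fold lower, where 1.07% and 2.28% of 12436 genes were called, 3.35% in all. At 1.5-fold 10 members were higher (29.4%, against 6.71% of all genes) and 0 were lower (against 7.12%). The median was 0.40, against 0.01 over all genes, and 30 of 34 members were higher and 4 lower, where 51% of all genes were higher and 49% lower. Without Grm8, 29 of 33 were higher, against 52.2% of all genes with 1 FPKM in both libraries. After scaling by total reads, and also after TPM, 26 of 34 were higher, where the median of all genes was -0.13 and -0.15. Any 2 of the 3 comparisons share a library and are not independent of each other.

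**Figure D2:**
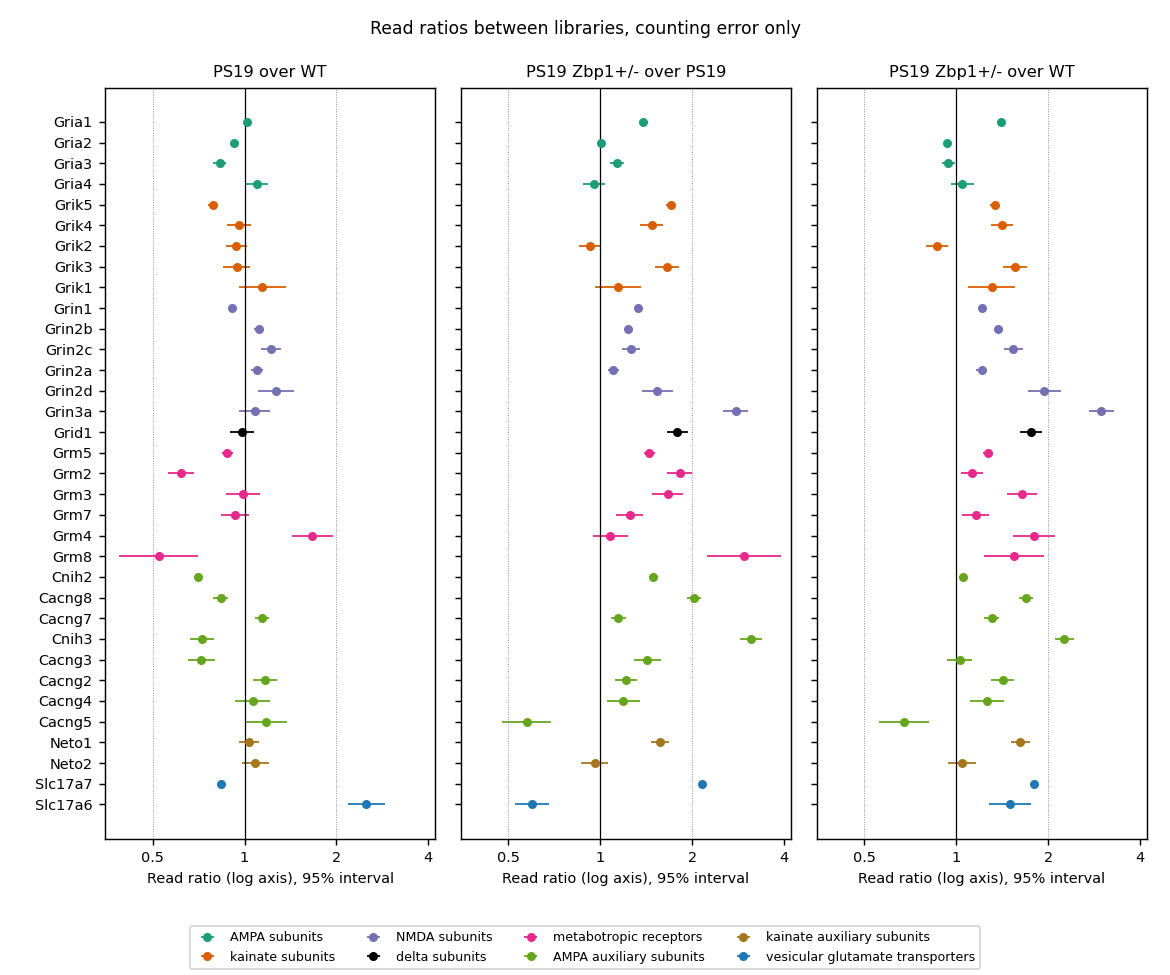
Read ratios of 34 members (Grin3b is left out) between libraries on a log axis, with exact 95% intervals for counting error; dotted lines mark 0.5 and 2. In the left panel Slc17a6 stands at 2.51 and most others lie close to 1, whereas in the middle panel Cnih3 reaches 3.11 and most points lie above 1.

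The sequences before the starts of the members past 2-fold in any comparison are shown so that their GC content and GC boxes can be seen, as RefSeq places the start on GRCm38.p6. Each is the plus strand, 250 bases, 5′ to 3′, with GC boxes (GGGCGG on either strand) in capitals. They are those of Cnih3, at chr1:181352378-181352627, of Slc17a7, at chr7:45163671-45163920, of Cacng8, at chr7:3393792-3394041, which lies inside the gene as the deposited table places it, and of Slc17a6, at chr7:51621580-51621829, which is the outer of its 2 starts. None of these windows overlaps an annotated exon, and the table of promoters has no entry for Grin3a.
Cnih3: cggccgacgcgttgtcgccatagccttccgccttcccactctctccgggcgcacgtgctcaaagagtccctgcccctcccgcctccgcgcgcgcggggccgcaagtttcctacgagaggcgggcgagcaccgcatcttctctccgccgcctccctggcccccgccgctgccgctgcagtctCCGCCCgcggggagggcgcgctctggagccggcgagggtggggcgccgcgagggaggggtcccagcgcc
Slc17a7: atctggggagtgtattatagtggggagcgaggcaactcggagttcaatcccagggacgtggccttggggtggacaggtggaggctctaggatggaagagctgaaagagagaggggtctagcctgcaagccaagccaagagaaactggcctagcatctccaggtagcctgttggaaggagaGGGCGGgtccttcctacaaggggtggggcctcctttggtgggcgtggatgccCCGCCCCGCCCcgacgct
Cacng8: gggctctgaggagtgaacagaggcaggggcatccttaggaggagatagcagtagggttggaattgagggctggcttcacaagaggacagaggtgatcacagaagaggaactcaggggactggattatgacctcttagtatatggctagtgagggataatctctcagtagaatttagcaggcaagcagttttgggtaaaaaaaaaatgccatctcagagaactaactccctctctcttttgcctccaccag
Slc17a6: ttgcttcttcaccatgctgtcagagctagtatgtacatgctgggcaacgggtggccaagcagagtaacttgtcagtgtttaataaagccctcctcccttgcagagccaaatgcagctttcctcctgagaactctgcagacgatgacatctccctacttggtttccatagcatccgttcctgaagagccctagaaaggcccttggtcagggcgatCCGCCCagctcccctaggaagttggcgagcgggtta
The Cnih3 window holds 76% G and C with 1 GC box, that of Slc17a7 61.2% with 3, that of Cacng8 48% with 0, and that of Slc17a6 53.2% with 1. In all, 30 promoters were found for 24 of the 35 members, and 16 of the 30, or 53.3%, held a GC box, against 32.7% of 32851 promoters in the table. The letters TATAAA were in 1 of the 30, against 12.4% of all, and TGACGT, the core of the cyclic AMP response element, in 0 of the 30, against 6.47%. The windows of Grin2d, Cacng2 and Cacng3 lie in annotated exons over all 250 bases. Those of Grm7 overlap each other and count the same GC box more than once. These counts describe the letters in the windows and were not tested.

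AMPA receptors are built from Gria1 to Gria4, and the subunit Gria2 in its edited form makes them nearly impermeable to calcium. Gria1 (ENSMUSG00000020524; chromosome 11, 57011387 to 57330244) had 131 FPKM in WT, with 134 in PS19 and 185 in PS19 Zbp1+/-. PS19 Zbp1+/- was high and the other 2 were close together, with a read ratio to PS19 of 1.38 (95% interval 1.35 to 1.41) and to WT of 1.4 (1.37 to 1.44). Gria2 (ENSMUSG00000033981; chromosome 3, 80681450 to 80802835) had 48.1, 44.6 and 44.9 FPKM in the same order and so, as deposited, did not share the higher level. Its ratio was 0.926 (0.903 to 0.95) for PS19 over WT, 1.01 (0.981 to 1.03) for PS19 Zbp1+/- over PS19 and 0.933 (0.909 to 0.957) over WT. Per recovered read Gria2 was below PS19 in PS19 Zbp1+/-, at 0.884 (0.861 to 0.907). Its difference from PS19 ran from -0.27 to 0.20 log2 units under the alternatives tried. Gria3 was highest in WT, with 21, 17.4 and 19.8 FPKM, and PS19 Zbp1+/- was at 0.941 times WT (0.896 to 0.987). Gria4, known from interneurons, had 9.84, 10.8 and 10.3 FPKM, and PS19 Zbp1+/- was within counting error of PS19, at 0.951 (0.874 to 1.04), but below it per recovered read, at 0.835 (0.767 to 0.909). Of all AMPA subunit FPKM, Gria1 made up 62.5% in WT, with 64.8% in PS19 and 71.1% in PS19 Zbp1+/-, and Gria2 22.9%, 21.5% and 17.3%. These shares rest on the gene lengths used, 6043 bases for Gria1 and 15548 for Gria2. In WT their reads were close, 13710 and 12912. No AMPA subunit differed by 1.5-fold in any comparison.

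The auxiliary subunits of AMPA receptors spread more widely than the subunits themselves. Cnih3, a cornichon that slows the closing of AMPA receptors (ENSMUSG00000026514; chromosome 1, 181352628 to 181460641), had 23.4 FPKM in WT, with 17.0 in PS19 and 52.8 in PS19 Zbp1+/-. PS19 was the lowest and PS19 Zbp1+/- stood far above both, at 1109, 808 and 2300 reads. The read ratio was 0.727 (0.663 to 0.797) for PS19 over WT, 3.11 (2.87 to 3.37) for PS19 Zbp1+/- over PS19 and 2.26 (2.1 to 2.43) for PS19 Zbp1+/- over WT. Its relative Cnih2, the most abundant member, had 442, 312 and 464 FPKM. PS19 was again lowest, at a ratio to WT of 0.705 (0.683 to 0.727), and PS19 Zbp1+/- was close to WT, at 1.05 (1.02 to 1.08), or 0.941 (0.914 to 0.969) per recovered read. Cacng8, the TARP that dominates in the hippocampus (chromosome 7, 3390683 to 3415648), had 63.1, 52.8 and 107 FPKM. Its ratio for PS19 Zbp1+/- over PS19 was 2.02 (1.92 to 2.13), only just past 2-fold, and its difference on the log2 scale came to 0.73 after TPM and 0.76 after correction for GC content and length.

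Of the other TARPs, Cacng3 had 18.8 FPKM in WT, with 13.6 in PS19 and 19.4 in PS19 Zbp1+/-, lowest in PS19 at 0.722 times WT (0.652 to 0.799). Cacng2 (stargazin) had 9.34, 10.9 and 13.3 FPKM, lowest in WT, with PS19 at 1.17 times WT (1.07 to 1.28). Cacng7, which has its gene beside that of Cacng8, had 54.7, 62.4 and 71.4 FPKM, also lowest in WT. The neighbours thus differed in order, since PS19 was the lowest library for Cacng8. Cacng4 ranged from 7.39 FPKM in WT to 9.33 in PS19 Zbp1+/-. Cacng5 alone of the class was lower in PS19 Zbp1+/- than in PS19 as deposited, but after TPM Cacng2, Cacng4 and Cacng7 were lower too, by at most 0.09 log2 units. Cacng5 was at 4.49 FPKM in WT, with 5.28 in PS19 and 3.03 in PS19 Zbp1+/-. It gave a ratio of 0.574 (0.478 to 0.688) for PS19 Zbp1+/- over PS19 and 0.675 (0.559 to 0.814) over WT, and its difference from PS19 of -0.64 log2 units was -1.01 after TPM.

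Kainate receptors combine the subunits Grik1 to Grik3 with the high-affinity subunits Grik4 and Grik5, which form no channel alone. Grik5 (chromosome 7, 25009849 to 25072346) made up between 71.3% and 75.8% of kainate subunit FPKM, at a level of 68.4 FPKM in WT, with 53.8 in PS19 and 91.4 in PS19 Zbp1+/-. PS19 was the lowest library, with a ratio to WT of 0.787 (0.758 to 0.818), and PS19 Zbp1+/- the highest, with a ratio to PS19 of 1.7 (1.64 to 1.76). Grik4, known from CA3 pyramidal neurons, had 9.63, 9.22 and 13.6 FPKM, and Grik3 5.3, 4.99 and 8.23. Both were near-equal in WT and PS19 and higher in PS19 Zbp1+/-. Grik2, the main channel-forming kainate subunit of hippocampal neurons, had 5.53, 5.19 and 4.79 FPKM. As deposited it was not higher in PS19 Zbp1+/-, at a ratio to WT of 0.867 (0.797 to 0.942) and to PS19 of 0.923 (0.848 to 1.01). Per recovered read it was below PS19, at 0.81 (0.744 to 0.882). Its difference from PS19 ran from -0.38 to 0.09 log2 units under the alternatives tried. Grik1 was low, from 2 FPKM in WT to 2.61 in PS19 Zbp1+/-.

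As deposited, the auxiliary subunits of kainate receptors parted from each other. Neto1, which also associates with NMDA receptors, had 21.9 FPKM in WT, with 22.8 in PS19 and 35.6 in PS19 Zbp1+/-, a ratio of 1.56 (1.46 to 1.68) over PS19. Neto2 had 6.95, 7.55 and 7.24 FPKM, and PS19 Zbp1+/- was within counting error of PS19, at 0.959 (0.865 to 1.06), but below it per recovered read, at 0.841 (0.759 to 0.932). The difference of Neto2 from PS19 ran from -0.33 to 0.15 log2 units under the alternatives tried. The Ftl2-ps pseudogene lies inside Grik3 on the same strand, with a count of 1 in WT, of 6 in PS19 and of 347 in PS19 Zbp1+/-. Its part in the higher count of Grik3 in PS19 Zbp1+/-, 1169 reads against 774 in PS19, was not tested.

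NMDA receptors pair the obligatory subunit Grin1 with Grin2 subunits that set the kinetics, and Grin3 subunits lower their calcium flux. Grin1 (chromosome 2, 25291181 to 25319187) had 43 FPKM in WT, with 39.2 in PS19 and 52.2 in PS19 Zbp1+/-, a ratio of 1.33 (1.29 to 1.38) over PS19. The antisense gene Grin1os overlaps it, with between 274 and 319 reads per library against at least 6569 for Grin1. Grin2b had 16.6, 18.5 and 22.7 FPKM, and Grin2a, the subunit that gains weight in the adult, had 12.6, 13.8 and 15.2. Both were lowest in WT and highest in PS19 Zbp1+/-. A pseudogene of Grin2a, Gm7328, matches it at 99.9% identity over 2225 aligned bases, so reads of the 2 could be split. Grin2c, known from astrocytes and thalamus, had 14.1, 17.2 and 21.6 FPKM, and Grin2d, known from interneurons, had 3.36, 4.26 and 6.53. PS19 was above WT for both, at 1.22 (1.13 to 1.32) and 1.27 (1.11 to 1.45). For Grin2d the ratio of PS19 Zbp1+/- to WT was 1.94 (1.71 to 2.21), and Kdelr1 overlaps it on the other strand with between 684 and 882 reads per library.

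Grin3a (ENSMUSG00000039579; chromosome 4, 49661611 to 49845744) was the NMDA subunit with the widest difference. It had 2.7 FPKM in WT, with 2.91 in PS19 and 8.07 in PS19 Zbp1+/-, from 572, 618 and 1568 reads. WT and PS19 did not differ beyond counting error, at a ratio of 1.08 (0.961 to 1.21), while PS19 Zbp1+/- stood apart from both, at 2.77 (2.52 to 3.05) over PS19 and 2.99 (2.71 to 3.29) over WT. It made up 2.92%, 3.03% and 6.38% of NMDA subunit FPKM in the same order. Its difference from PS19 was 1.21 log2 units and stayed between 1.06 and 1.44 under the alternatives tried. As deposited, all 6 NMDA subunits compared were higher in PS19 Zbp1+/- than in PS19, with 1 of the 6 past 2-fold. Of all genes, 53.7% were higher and 2% at least 2-fold higher. Grin2a was lower under 2 alternatives and Grin2c under 1. The class median was 0.36 and stayed between 0.09 and 0.37.

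Grid1, the delta subunit compared, had 9.38 FPKM in WT, with 9.22 in PS19 and 16.5 in PS19 Zbp1+/-. WT and PS19 did not differ beyond counting error, at 0.982 (0.897 to 1.08), and PS19 Zbp1+/- was higher than PS19 at 1.79 (1.65 to 1.94) and than WT at 1.76 (1.62 to 1.9).

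The metabotropic receptors did not differ in 1 direction between PS19 and WT. Grm2, a presynaptic receptor of the group that lowers cyclic AMP (chromosome 9, 106643095 to 106656082), had 12.9 FPKM in WT, with 7.98 in PS19 and 14.5 in PS19 Zbp1+/-. PS19 was the lowest, at a ratio to WT of 0.619 (0.562 to 0.682), and PS19 Zbp1+/- was near WT at 1.12 (1.03 to 1.22) and at 1.82 times PS19 (1.65 to 2). Grm3, of the same group but also abundant in astrocytes, had 9.58, 9.47 and 15.7 FPKM, so that WT and PS19 were level. Grm4 had the opposite order to Grm2 between these libraries, with 2.58 FPKM in WT, with 4.3 in PS19 and 4.63 in PS19 Zbp1+/-, a ratio of 1.67 (1.43 to 1.95) for PS19 over WT. Grm5, the postsynaptic receptor that mobilises calcium and the most abundant of the 6, had 24.9, 21.9 and 31.6 FPKM. Grm7, found at release sites, had 7.3, 6.78 and 8.46. Grm8 was scarce, with 137, 72 and 194 reads, PS19 again being the lowest, at a ratio to WT of 0.524 (0.389 to 0.703). Relative to PS19, the 5 receptors that passed the minimum in both libraries were higher in PS19 Zbp1+/-, with a median of 0.51 log2 units, where 56.9% of all genes so filtered were higher. Of these, Grm4, at 0.09, turned to a negative value under 3 alternatives, the lowest being -0.28.

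The 2 vesicular transporters had opposite orders between PS19 and each of the other libraries. Slc17a7 (VGLUT1; ENSMUSG00000070570; chromosome 7, 45163949 to 45176142), the transporter of hippocampal pyramidal and granule neurons, had 206 FPKM in WT, with 172 in PS19 and 371 in PS19 Zbp1+/-. PS19 was slightly below WT, at 0.838 (0.821 to 0.856), and PS19 Zbp1+/- was far above both, at 2.15 (2.11 to 2.19) over PS19 and 1.8 (1.77 to 1.84) over WT. The difference from PS19 was 1.10 log2 units, but 0.82 after TPM, 0.91 after scaling by total reads and 0.87 after correction for GC content and length. Slc17a6 (VGLUT2; ENSMUSG00000030500; chromosome 7, 51622006 to 51671119), the transporter of thalamic and other subcortical neurons, had 2.98, 7.48 and 4.46 FPKM, from 278, 698 and 381 reads. PS19 was the highest library, at 2.51 (2.18 to 2.89) over WT. PS19 Zbp1+/- lay between the others, at 0.596 (0.525 to 0.676) of PS19 and 1.49 (1.28 to 1.75) over WT. Slc17a6 made up 1.43% of the transporter FPKM in WT, with 4.16% in PS19 and 1.19% in PS19 Zbp1+/-. Genes that mark the thalamus were read beside it. Of 7 such markers, 4 reached 1 FPKM in both PS19 and WT, and 3 of these were at least 2-fold higher in PS19, where 1.29% of all genes at 1 FPKM in both were. They were Plekhg1 (1.89, 7.42 and 1.16 FPKM in the order WT, PS19, PS19 Zbp1+/-), Rora (2.41, 6.6 and 2.05) and Prkcd (8.15, 23.1 and 1.69). Tcf7l2, Lef1 and Slitrk6 reached 1 FPKM only in PS19 and so were bound to be higher there, with Tcf7l2 at 0.988, 3.85 and 0.463. The exception, Calb2, which also labels hippocampal mossy cells and interneurons, had 31.2, 9.49 and 34.8 FPKM. Between PS19 Zbp1+/- and WT, where Slc17a6 was higher, 3 of the 4 thalamus markers compared were lower, against 49% of all genes. The summed level of the list with Calb2 was 45.4, 52.7 and 40.8 FPKM. The part of thalamic tissue in the level of Slc17a6 was not tested.

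A ratio of 2 genes within a library does not depend on how libraries are scaled, and 16 such pairs were followed. It can still depend on GC content where the 2 genes differ in it, as Grik2 (37.9%) and Grik5 (61.7%) do, or Gria2 (36.8%) and Gria1 (48.5%). The pair ratios were not corrected for GC content. Slc17a6 against Slc17a7 changed most between PS19 and WT, 2.99-fold (exact 95% interval 2.59 to 3.45), and PS19 Zbp1+/- had 0.277 times the ratio of PS19 (0.244 to 0.315). Gria1 against Gria2 stood at 2.73 in WT, with 3.01 in PS19 and 4.12 in PS19 Zbp1+/- on the FPKM scale, and PS19 Zbp1+/- had 1.37 times the ratio of PS19 (1.32 to 1.42). Grin2a against Grin2b, the balance that shifts as NMDA receptors mature, was 0.757, 0.747 and 0.669. WT and PS19 did not differ in it beyond counting error, at 0.987 (0.935 to 1.04), and PS19 Zbp1+/- had 0.896 times the ratio of PS19 (0.85 to 0.944). Grin2a against Grin1 was 1.21-fold (1.14 to 1.27) higher in PS19 than in WT.

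Partners were also followed against their receptors. In the order WT, PS19, PS19 Zbp1+/-, Cacng8 against Gria1 stood at 0.48, 0.394 and 0.578, and Cnih2 against Gria1 at 3.36, 2.32 and 2.51. Both were lowest in PS19, and the Cnih2 ratio in PS19 Zbp1+/- was 0.746 times that of WT (0.719 to 0.774). Neto1 against Grik2 was 3.97, 4.38 and 7.43, with PS19 Zbp1+/- at 1.69 times the ratio of PS19 (1.52 to 1.89). Neto2 against Grik2 was within counting error of PS19, at 1.04 (0.908 to 1.19). Grik2 against Grik5 was lower in PS19 Zbp1+/- than in PS19, at 0.543 times (0.495 to 0.596). Grm2 against Grm3 was 0.627 times (0.534 to 0.735) in PS19 what it was in WT, and the ratio of Grm3 to Grm5 did not differ there beyond counting error, at 1.12 (0.983 to 1.28).

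**Figure D3:**
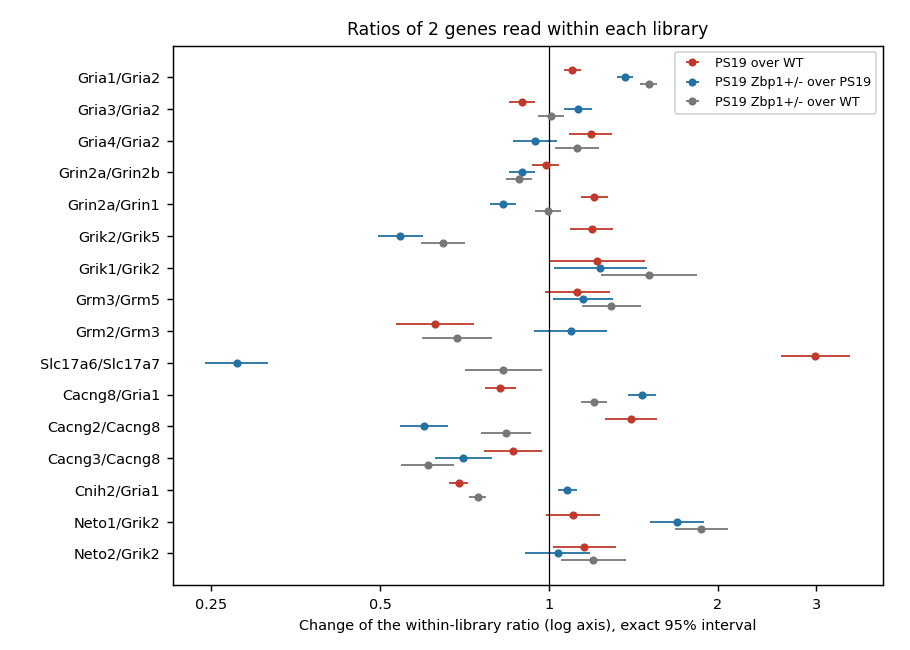
Change of the ratio of 2 genes read within the same library, for 16 pairs and 3 comparisons, on a log axis with exact 95% intervals for counting error. Slc17a6 over Slc17a7 lies at 2.99 for PS19 over WT and at 0.277 for PS19 Zbp1+/- over PS19, outside the range of the other pairs.

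Genes with more G and C in their transcripts were higher in PS19 Zbp1+/- across the table. All genes were cut into 10 equal bins of GC content, and the median difference between PS19 Zbp1+/- and PS19 went from -0.17 in the lowest bin to 0.30 in the highest. The same medians between PS19 and WT were -0.05 and -0.10. Among the 34 members the correlation of GC content with the difference between PS19 Zbp1+/- and PS19 was 0.36 (Pearson) and 0.42 (Spearman), as a description across genes that share both libraries. Gria2, Grik2 and Gria4, which were not above PS19 in PS19 Zbp1+/- beyond counting error, had transcripts of low GC content, at 36.8%, 37.9% and 44.3%, whereas Cacng8 had 65.1% and Grik5 61.7%. Others did not follow that order. Grm4, at 61.7%, was within counting error of PS19, at a read ratio of 1.08 (0.942 to 1.23), while Neto1 at 39.6% was high in PS19 Zbp1+/- and Grin3a and Grid1 at 49.2% and 49.9% lay near the median of all genes, 50.1%. Members below that median had a median difference of 0.28 (17 genes) and members above it of 0.51 (17 genes), where all genes had -0.07 and 0.17. After subtraction of the median of genes of like GC content and length, the members' median was 0.34, and Cnih3 at 1.51 and Grin3a at 1.15 remained past 2-fold. Between PS19 Zbp1+/- and WT the same correction took the median from 0.40 to 0.22, with 28 of 34 members higher. The correction itself sets the median of all genes to 0.

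**Figure D4:**
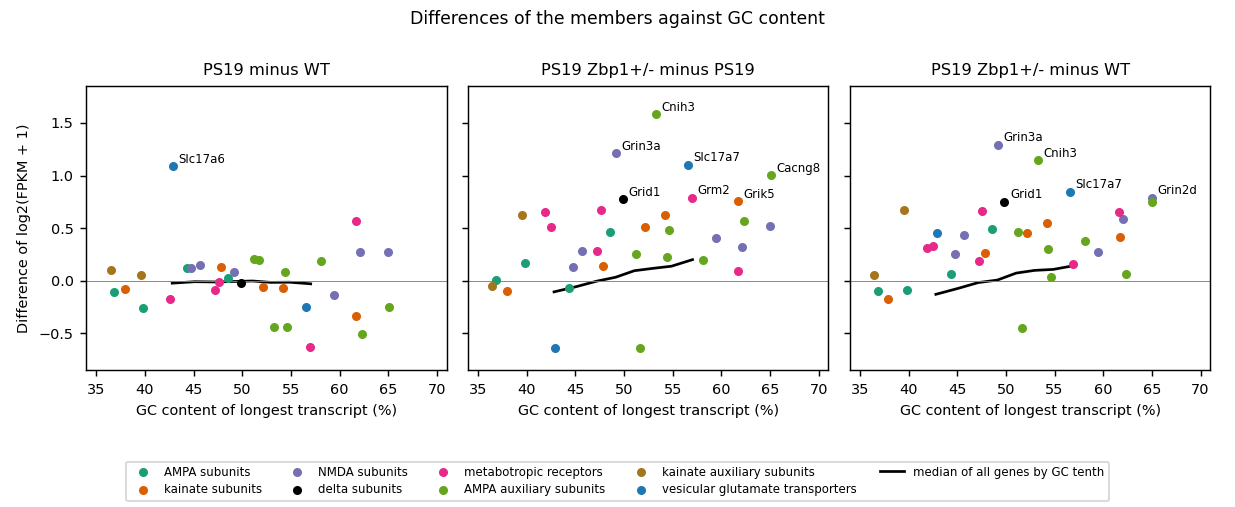
Difference of log2(FPKM + 1) of each member against the GC content of its longest transcript, coloured by class, in 3 comparisons. The black line joins the medians of all genes by bin of GC content, without the outermost bins. The line is flat for PS19 minus WT and slopes upward in both comparisons of PS19 Zbp1+/-, and most members lie above it there.

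Other genes of the glutamate synapse were read from 3 further lists. Of 20 genes for other auxiliary subunits and receptor regulators, 16 were lower in PS19 than in WT, where 53.7% of all genes were lower, with a median of -0.29 log2 units and 0 past 2-fold. Between PS19 Zbp1+/- and PS19, 16 were higher and 3 at least 2-fold so, where 53.7% and 2% of all genes were. These were the pentraxin Nptx2, which gathers AMPA receptors at synapses (12.8 FPKM in WT, with 9.97 in PS19 and 25.2 in PS19 Zbp1+/-), the pentraxin receptor Nptxr (180, 141 and 287) and the secreted protein Olfm2 (17.4, 13.1 and 30.8). Of 25 postsynaptic scaffold and signalling genes, 23 were higher in PS19 Zbp1+/- than in PS19, against the same 53.7% of all genes, with a median of 0.44. At least 2-fold higher were the scaffold Shank1 (48.1, 57.3 and 120 FPKM) and the linker Dlgap3 (82.5, 67.7 and 145). Shank1 was also past 2-fold over WT, at a read ratio of 2.49 (2.43 to 2.56). The 13 genes of glutamate uptake and metabolism, many of them astrocytic, had a median of -0.13 in that comparison, with 6 higher and 0 past 2-fold. Their median stayed negative under the alternatives tried, and those of the other lists stayed positive. The astrocyte transporters Slc1a2 and Slc1a3 were highest in PS19, at 140, 210 and 164 FPKM and at 57.8, 84.4 and 63.1 FPKM.

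Markers of the cell types that hold these receptors differed between the libraries as well. The summed FPKM of 6 CA1 pyramidal neuron markers came to 156 for WT, 110 for PS19 and 282 for PS19 Zbp1+/-, with Fibcd1 at 37, 27 and 111. All 6 were lower in PS19 than in WT and 5 were higher in PS19 Zbp1+/- than in PS19, 3 of them at least 2-fold, where 53.7% of all genes were lower in the first comparison, and 53.7% were higher and 2% at least 2-fold higher in the second. Wfs1 had 38.8, 27.1 and 28 and Lefty1, the exception, 5.8, 4.77 and 3.77. By contrast, 7 dentate granule neuron markers summed to 89.8, 72.3 and 59.9 FPKM, of which C1ql2 made up 51, 34 and 37.5. Of the 6 compared, 4 were higher in PS19 than in WT, where 46.3% of all genes were. Relative to PS19, 5 of the 6 were lower in PS19 Zbp1+/-, where 46.3% of all genes were. The 8 markers of CA3 and CA2 summed to 145, 129 and 112, with Bok at 53.3, 44.8 and 29.7 and Rgs14 at 24.1, 20.1 and 30.6. Of these 8, 5 were lower in PS19 Zbp1+/- than in PS19, against the same 46.3% of all genes. Neocortex markers (7 genes) summed to 41.4, 28.5 and 62.9, of which Fezf2 made up 14.4, 9.62 and 33.9. Without Fezf2 the other 6 summed to 27, 18.9 and 29. Among these Tbr1 had 9.73, 5.54 and 12.8, Lamp5 11.4, 6.88 and 9.97 and Rorb 1.68, 1.9 and 1.24. Of the 5 neocortex markers compared, 4 were higher in PS19 Zbp1+/- than in PS19, 2 of them at least 2-fold, where 53.7% and 2% of all genes were. The 10 interneuron markers summed to 774, 562 and 749, but without Sst and Cck the other 8 summed to 217, 217 and 201. Of the 10, 6 were higher in PS19 than in WT, with a median of 0.006 log2 units. Among glia, oligodendrocyte markers (8 genes) summed to 825, 1487 and 523, oligodendrocyte precursor markers (7 genes) to 104, 122 and 153, astrocyte markers (8 genes) to 322, 490 and 348 and microglia markers (9 genes) to 177, 631 and 188. Olig1 made up 68.4, 78.3 and 106 of the precursor sum. Relative to PS19, 4 of the 7 precursor markers were higher in PS19 Zbp1+/- and 3 lower, where 53.7% of all genes were higher. Choroid plexus markers (8 genes) summed to 3152, 1922 and 11.8. Cnih3, Grin3a and Slc17a7 were highest in PS19 Zbp1+/-. The summed CA1, neocortex and oligodendrocyte precursor markers were also highest there, though Wfs1 and Lefty1 were below WT. The summed dentate, CA3 and CA2, oligodendrocyte and choroid plexus markers were lowest there. With 1 library per genotype, these orders cannot link the members to any list. The part of tissue composition in the members' differences was not tested.

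**Figure D5:**
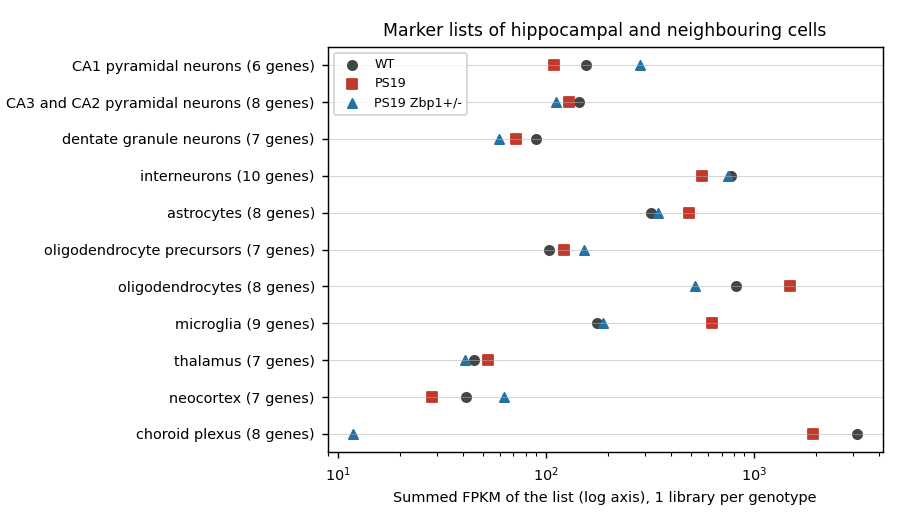
Summed FPKM of 11 marker lists in each library, on a log axis (circle WT, square PS19, triangle PS19 Zbp1+/-). CA1 markers and neocortex markers are highest in PS19 Zbp1+/-, and microglia and oligodendrocyte markers are highest in PS19. Choroid plexus markers are at 11.8 FPKM in PS19 Zbp1+/- against 1922 and 3152 in the others.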

How the data were processed

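The authors deposited FPKM values for 3 libraries in 1 table. Trim Galore 0.6.5, STAR 2.5.3a, featureCounts 2.0.4 and the build mm39 are listed in the submitters' processing notes, but 33 of the 35 gene positions equal those of GENCODE M21 (GRCm38), so the table's own positions are printed. Strand use in counting was not given in the sources used here, and 18 members overlap a gene on the other strand. Each FPKM times gene length was a whole multiple of 1 step, within 0.001 of a read, for 100% of values, which gave reads and implied library sizes of 17253479 (WT), 17287957 (PS19) and 15826984 (PS19 Zbp1+/-). Read ratios are per implied size, or per recovered read where so stated (added after seeing the data), and have exact Clopper-Pearson 95% intervals, and within-library ratios are conditional odds ratios of reads. The labels name no molecular identifiers, so reads may not be independent molecules. A gene was called at 1 log2 unit of log2(FPKM + 1), that is 2-fold, or at 1.5-fold where so stated. The longest transcript of a gene in GENCODE M21 gave its GC content.

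Members, lists and pairs were chosen with earlier results of these data known. Every member is given. In each further list up to 3 genes per direction past 2-fold are named, and other list genes, chosen after their values were seen, illustrate a list. The alternatives were pseudocounts of 0.1 and 0.5, no filter, a mean FPKM of at least 5, TPM, total reads, the median ratio, 10 GC by 5 length bins, every biotype, a 1.5-fold threshold, the mean, leaving out the most changed member and, added after seeing the data, 1 FPKM in both libraries. The scripts were tested on simulated data. Software was matplotlib 3.10.9, scipy 1.17.1 and pandas 2.3.3 on Python 3.11.15, with BLAST for near copies.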

Additional observations from a re-analysis of the deposited data

How the results depend on the processing

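No paired analysis was possible because each genotype had 1 library, and for the same reason no replicate could be left out. Between PS19 Zbp1+/- and PS19, 4 members were 2-fold apart as deposited, 2 after scaling by total reads, 2 after correction for GC content and length, and 13 at 1.5-fold. Of all genes, 2% were 2-fold higher and 5.16% lower as deposited. These shares were 1.15% and 6.71% after scaling by total reads, 1.21% and 5.9% after the correction, and 9.37% and 12.1% at 1.5-fold. The members' median there was 0.43, but 0.15 after TPM and 0.25 after scaling by total reads. After TPM the 3 members past 2-fold included Cacng5, lower at -1.01, where 1.58% of all genes were higher and 13.6% lower. Between PS19 Zbp1+/- and WT, the 2 members past 2-fold became 1 after scaling by total reads (Cnih3 came to 0.99) and 10 at 1.5-fold, and the median of 0.40 became 0.25 after scaling by total reads and 0.22 after correction for GC content and length. Of all genes, 1.07% were 2-fold higher and 2.28% lower as deposited, and 0.628% and 3.01% after scaling by total reads. At 1.5-fold 6.71% were higher and 7.12% lower. Between PS19 and WT, 1 member, Slc17a6, was past 2-fold in each alternative at that threshold that kept it, and 2 members were past 1.5-fold. Between 1.29% and 5.24% of all genes were 2-fold higher under the filters, pseudocounts and scalings tried. At 1.5-fold 6.34% were higher and 2.71% lower. No member called at 2-fold changed its direction under the alternatives tried. Within-library ratios were the same to 3 digits from FPKM values as from reads. Requiring 1 FPKM in both libraries, a choice made after seeing the data, left out Grm8 and kept each count at 2-fold. Differences inside the read-ratio intervals on both scalings, such as that of Grid1 between PS19 and WT, were not detectable at this depth.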
